A study of Mus musculus with 8 samples.

Results

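The 39 genes described here encode the machinery that copies nuclear DNA. They were chosen by symbol, as genes with known roles in licensing, firing and elongation of replication and in its nucleotide supply, and all 39 were found among the 31228 genes of the mouse table. RNA was sequenced from 8 C57BL/6 mouse samples, to compare the epithelia of the extrahepatic bile duct and the pancreatic duct with organoids, which are cultures of epithelial cells in a gel, grown from each. There was 1 library of bile duct epithelium, 1 of pancreatic duct epithelium, 3 of bile duct organoids and 3 of pancreatic duct organoids. Ducts were dissected under a microscope and digested with collagenase IV. The epithelia then went into Trizol without culture or a cell sort. Organoids were grown in Matrigel for 3 to 4 passages with EGF, R-Spondin-1, Noggin, FGF10 and nicotinamide, with Wnt3A and Y27632 only until luminal organoids had formed. No allele or transgene is named for any group. The labels do not say whether the 3 organoid libraries of a group came from separate mice, so the spread between them may be technical. The p-values below measure only the spread among these 8 libraries.

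Replication is prepared in G1, when the origin recognition complex, Cdc6 and Cdt1 load the ring of Mcm2 to Mcm7 onto DNA. In the S phase, Cdc45 and the GINS complex turn this ring into the active helicase, the clamp Pcna holds the polymerases on the template, and nucleosomes and DNA methylation are restored behind the fork. Most of these genes are transcribed under E2F factors as cells enter the cycle, so their RNA is widely used as a sign of dividing cells. Duct epithelium in the adult is known to divide rarely, whereas organoid culture depends on division.

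Values below are FPKM (reads relative to exon length and to library size), scaled between libraries by a trimmed mean of log ratios. Where 2 values are given for the epithelia, the bile duct comes first, and single organoid values run from replicate 1 to 3. The values imply between 12876470 and 20828217 reads per library. Marker genes were checked before the members. The 2 epithelium libraries held RNA of many other cells: the 10 acinar markers summed to 18192 scaled FPKM in the library from bile duct and to 36882 in that from pancreatic duct. In the organoids the sum was 2.30 to 8.46, and Cpa1, Cpb1, Pnlip and Amy2a5 were listed at 0. Summed fibroblast markers were 1384 and 1608 in the epithelia and 0.145 to 2.48 in the organoids, smooth muscle markers 1939 and 3726 against 0.285 to 0.584, endothelial markers 320 and 571 against 0.0209 to 0.0718, immune markers 426 and 422 against 2.59 to 12.6, and erythroid markers 345 and 731 against 0.129 to 5.84. Endocrine markers summed to 68.9 and 186 against 0 to 1.00, hepatocyte markers to 368 and 92.3 against 8.29 to 136, intestinal markers to 888 and 25.8 against 63.5 to 116, and germinal centre markers to 12.8 and 4.57 against 1.76 to 2.56. In the organoids most of the hepatocyte sum was Ttr, at 5.76 to 132, while Alb, Apoa1, Serpina1c and Fgb were at most 3.15. Most of the intestinal sum there was Vil1, at 50.0 to 102, against 69.2 and 3.03 in the epithelia. Lgr5, Olfm4 and Ascl2 reached at most 6.71, 18.2 and 2.20 in organoids, and Fabp2, Defa24 and Lyz1 were at most 0.715. The 8 pan-epithelial markers (Epcam, Cdh1, Krt8, Krt18, Cldn7, Esrp1, Rab25 and Ap1m2) had sums of 2077 and 458 in the epithelia (bile duct first) and 3653 to 8780 in organoids. Duct markers summed to 1292, 554 and 1512 to 2834. In such mixed samples fewer cells of a type and less RNA per cell cannot be told apart.

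Nearly all replication genes were higher in organoids than in the epithelium libraries of both organs. In a limma fit over 8 libraries with organ as a covariate, 38 members had at least 1 FPKM in at least 2 libraries, and 37 of them rose at a Benjamini-Hochberg adjusted p under 0.05 over 14919 genes. None was called lower. The spread in this fit comes from the 6 organoids and from the disagreement of the 2 organs. With 1 library per epithelium, variation between samples of an epithelium was not measured. Each epithelium is assumed to vary like the organoids. Over all genes tested, 27.6% were called higher (4114, with 4481 lower; 5497 and 3659 on FPKM as deposited, with 38 members higher), and the median change was -0.003 against 1.92 on the log2(scaled FPKM + 1) scale for the 38 members. The changes ran from 0.46 for Orc6, which did not pass, to 3.36 for Rrm2. Adding 1 before the logarithm makes changes of low genes look smaller than they are. Before any fit, the summed scaled FPKM of the 39 members was 199 for the bile duct and 177 for the pancreatic duct epithelium. It was 669, 948 and 1030 in bile duct organoids 1 to 3 and 858, 520 and 905 in pancreatic duct organoids 1 to 3, so the sums of all 6 organoids lay above both epithelia. Gene by gene, all 6 organoids lay above both epithelia for 38 of the 39 members, Orc6 being the exception, against 30.9% of the genes tested.

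Within each organ a 2-fold rule was used in place of a test, since there was a single epithelium library. By it, 37 of 38 members were at least 2-fold higher in bile duct organoids with all 3 cultures above the epithelium, against 13.1% of 15227 genes. In the pancreatic duct this held for 33 of 38 members, against 15.7% of 14984 genes. The median changes were 1.92 in the bile duct and 1.94 in the pancreatic duct. Orc6 missed the rule in both organs, and Gins3, Gins4, Rfc2 and Prim2 missed it in the pancreatic duct alone. On FPKM as deposited these 4 met it there too, and Orc6 was the only member short of it in either organ, with 37 of 38 members at least 2-fold higher in the bile duct (18.3% of all genes) and 37 of 38 in the pancreatic duct (21.4%). That difference between organs was itself tested, with a limma interaction term chosen after the values were seen. Its spread comes from the organoids alone, and each epithelium library is assumed to vary like them. There, 0 of 38 members passed, 0 had an unadjusted p under 0.05, and 7.67% of all genes passed.

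**Figure D1:**
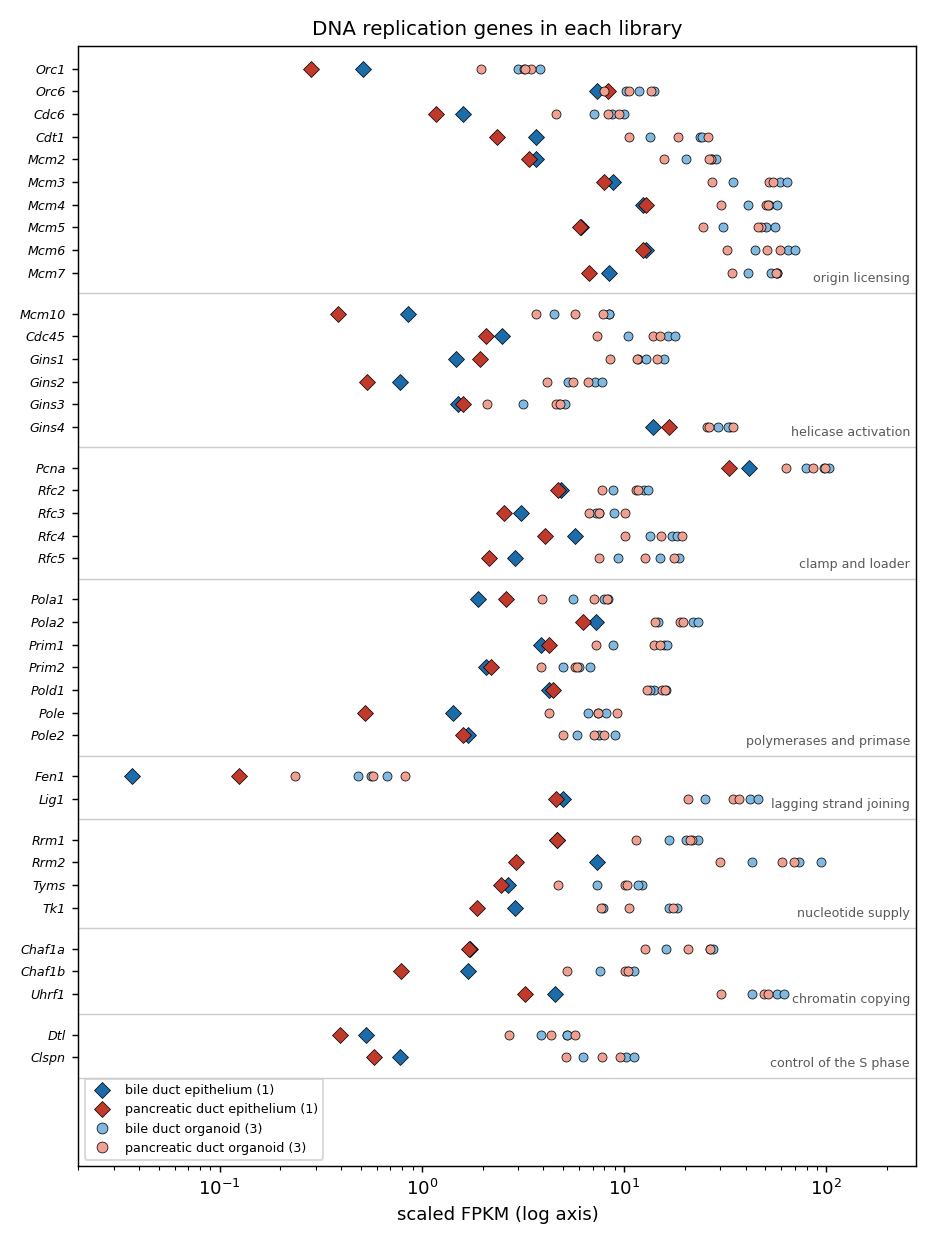
Scaled FPKM of the 39 members (log axis) in each library, grouped by role. Diamonds are the single epithelium libraries and circles the organoid cultures. Except for Orc6, where pancreatic duct organoid 2 lies under pancreatic duct epithelium, the circles lie to the right of both diamonds.

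These counts depend on what the change is measured against. The median change of the 8 pan-epithelial markers was 1.36 in the bile duct and 3.42 in the pancreatic duct, against 1.92 and 1.94 for the members. Measured relative to those markers, the members' median was 0.57 in the bile duct, where 10 of 38 were at least 2-fold higher (1.39% of all genes) and 30 lay above 0 (7.83% of all genes). In the pancreatic duct it was -1.48, where 0 of 38 were at least 2-fold higher (0.207% of all genes), 28 were at least 2-fold lower (97.1% of all genes) and 1, Rrm2, lay above 0 (0.834% of all genes). Without a pseudocount, an alternative added after the values were seen, the medians were 0.96 and -0.92, with 33 and 6 of 38 members above 0 (11.2% and 2.46% of all genes). By the mean of the organoids, 18 members were then at least 2-fold higher in the bile duct (3.55% of all genes) and 17 at least 2-fold lower in the pancreatic duct (94.5%). When the limma fit was scaled to these markers, 2 members were called higher (0.979% of all genes) and 4 lower (84.5%). Those higher were Rrm2, by 1.17 with adjusted p = 0.0335, and Uhrf1, by 1.14 with adjusted p = 0.0392. Those lower were Orc6, Gins4, Pcna and Rfc2. The amount of epithelial RNA in the epithelium libraries and the level of replication genes per epithelial cell cannot be told apart here, and the values that follow use the library scaling.

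**Figure D2:**
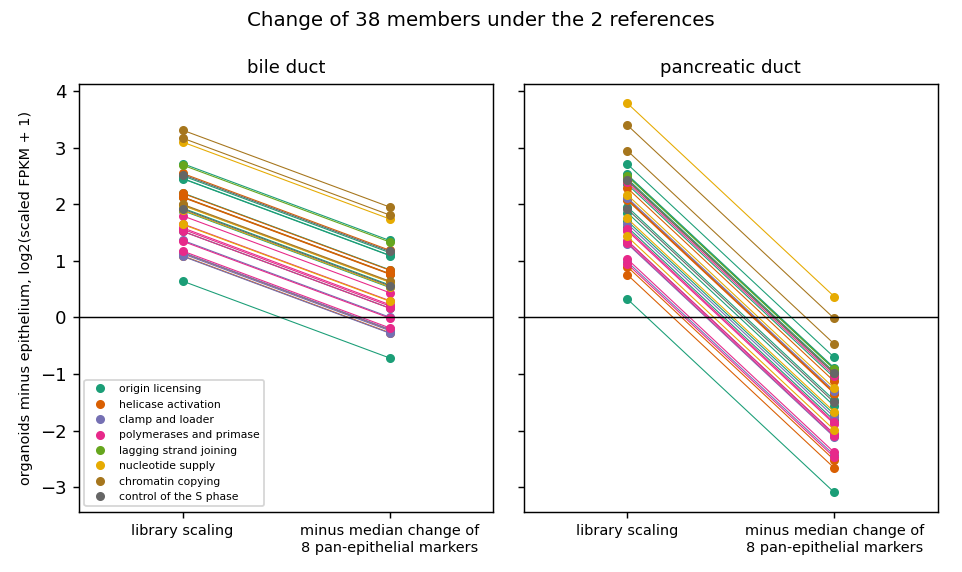
Change from epithelium to organoid of 38 members on the log2(scaled FPKM + 1) scale, in the bile duct (left) and the pancreatic duct (right), as scaled between libraries and after subtracting the median change of 8 pan-epithelial markers. Each line is a gene, coloured by role. In the pancreatic duct 37 of the 38 lines end below 0, and in the bile duct 8 do.

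Of the 10 origin licensing genes, 9 rose. Orc1, the subunit of the origin recognition complex whose level follows the cell cycle, was at 0.513 scaled FPKM in the bile duct and 0.283 in the pancreatic duct epithelium. It reached 2.99, 3.19 and 3.86 in bile duct organoids 1 to 3 and 3.46, 1.95 and 3.25 in pancreatic duct organoids 1 to 3. The groups did not overlap, and the change was 1.55 ± 0.18 (SE) with adjusted p = 0.000352 in the limma fit, on 20 and 13 reads in the epithelia and 122 to 268 in the organoids. The change was 2.70 with a pseudocount of 0.1 and 2.96 in a limma voom fit on recovered reads. Orc6, another subunit of that complex, behaved otherwise. It stood at 7.37 and 8.33 in the epithelia, at 10.2, 11.8 and 14.1 in bile duct organoids and at 10.5, 7.99 and 13.6 in pancreatic duct organoids. Pancreatic duct organoid 2 lay below its epithelium, and the change of 0.46 ± 0.21 (SE) had adjusted p = 0.0917. Without pancreatic duct organoid 2 it was 0.56 and passed, and without bile duct epithelium it was 0.28. On FPKM as deposited it was 0.72 and passed in the limma fit (adjusted p = 0.0306). Orc6 overlaps Vps35 on the opposite strand, which reached 23.2 FPKM as deposited, and whether the counting used strand is not given in the sources used here. Mcm7, Rfc2, Rfc4, Rfc5, Cdc45, Chaf1a, Gins2, Pole, Lig1 and Fen1 likewise overlap genes on the opposite strand that reached 1 FPKM in a library, whose reads cannot be told apart from theirs without strand. Among the other subunits, Orc2 rose by 0.62 (adjusted p = 0.00852) while Orc3 fell by 0.37 (adjusted p = 0.0403) and Orc4 fell by 0.29 (adjusted p = 0.0401). Both falls depended on the scaling and did not pass on FPKM as deposited (-0.12 and -0.043, adjusted p = 0.469 and 0.744). Orc5 changed by 0.25 (adjusted p = 0.152) and passed on FPKM as deposited (0.47, adjusted p = 0.0301). Per length, Orc1 was the lowest of Orc1 to Orc6 in every library, at a ratio of the highest to the lowest subunit of 14.7 and 32.7 in the epithelia and 3.05 to 4.18 in the organoids. Cdc6, which recruits the ring together with Cdt1, rose from 1.60 and 1.17 in the epithelia to 8.63 ± 1.45 (SD, n = 3) in bile duct organoids and 7.44 ± 2.52 (SD, n = 3) in pancreatic duct organoids. Cdt1 rose from 3.69 and 2.37 to 20.6 ± 6.10 and 18.4 ± 7.75 (SD, n = 3 each).

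All 6 subunits of the Mcm ring rose, by 1.79 for Mcm4 to 2.56 for Mcm5. Mcm2 (chromosome 6, 88883474 to 88898780, minus strand, GRCm38) was at 3.65 scaled FPKM in the bile duct and 3.40 in the pancreatic duct epithelium. It was at 20.2, 27.3 and 28.6 in bile duct organoids 1 to 3 and at 27.1, 15.8 and 26.4 in pancreatic duct organoids 1 to 3, so that every organoid lay above both epithelia. Mcm2 was the lowest of the 6 per length in all 8 libraries. Mcm3 (chromosome 1, 20802968 to 20820312) was at 8.82 and 7.96 in the epithelia, 34.5, 59.5 and 64.1 in bile duct organoids and 52.4, 27.4 and 54.7 in pancreatic duct organoids. Mcm4 (chromosome 16, 15623897 to 15637400) was at 12.4 and 12.8, then 41.2, 52.4 and 57.3, and 50.7, 30.1 and 51.4. Mcm5 (chromosome 8, 75109569 to 75128439) was at 6.12 and 6.08, then 31.0, 50.6 and 55.9, and 47.6, 24.5 and 45.8. In each case the lowest organoid was pancreatic duct organoid 2, followed by bile duct organoid 1. Mcm6 (chromosome 1, 128331590 to 128359664) was at 12.9 and 12.4 in the epithelia, 44.7, 64.5 and 69.9 in bile duct organoids and 51.1, 32.4 and 58.9 in pancreatic duct organoids. Mcm7 (chromosome 5, 138164583 to 138172422) was at 8.40 and 6.68, then 41.1, 53.3 and 57.4, and 57.4, 34.4 and 56.2. Cops6 and Ap4m1 overlap it on the opposite strand. The limma changes were 2.45 ± 0.23 for Mcm2 (adjusted p = 0.000109), 2.35 ± 0.33 for Mcm3 (0.000771), 1.79 ± 0.23 for Mcm4 (0.000551), 2.56 ± 0.31 for Mcm5 (0.000405), 1.96 ± 0.26 for Mcm6 (0.000615) and 2.56 ± 0.23 for Mcm7 (8.23e-05), each with its SE. The 6 levels stood closer together in the organoids: the ratio of the highest to the lowest subunit was 3.53 and 3.76 in the epithelia and 2.12 to 2.45 in the organoids.

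Because these genes moved together, their promoters were searched for words known to bind E2F factors. RefSeq promoters (GRCm38.p6) were given for 32 of the 39 members, and the 250 bases before the start were read on both strands. TTTCCCGC, TTTCGCGC, TTTGCCGC or TTTGGCGC was present in 10 of the 32 (31.2%), namely Mcm5, Mcm6, Mcm7, Cdc6, Orc1, Gins3, Pola1, Rfc3, Uhrf1 and Dtl, against 2.16% of 27025 genes. CCAAT was present in 20 of 32 (62.5%), against 37.5% of all genes, and the word TTTGAA, of the CHR type, in 4 of 32 (12.5%), against 18.3%. A match is only a match of letters. Stretches around the E2F type words are printed 5′ to 3′ on the gene's strand for 5 members, with the words in capitals, chosen for the number of matches and then the size of the change, except that the stretch of Mcm7, which lies in annotated exons, is left out:
Mcm6: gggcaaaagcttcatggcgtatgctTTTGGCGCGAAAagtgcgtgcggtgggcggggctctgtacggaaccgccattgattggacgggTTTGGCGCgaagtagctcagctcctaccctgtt
Mcm5: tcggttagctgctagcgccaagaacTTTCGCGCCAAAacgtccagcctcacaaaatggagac
Uhrf1: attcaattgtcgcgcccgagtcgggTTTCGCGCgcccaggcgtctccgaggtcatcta
Dtl: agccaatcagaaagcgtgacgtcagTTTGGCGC
Cdc6: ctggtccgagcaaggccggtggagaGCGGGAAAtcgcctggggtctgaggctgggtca
Mcm6 (chr1:128359720-128359840, minus strand) holds 3 words, of which the first, TTTGGCGC, overlaps TTTCGCGC read on the other strand, and the last begins 47 bases before the start. Mcm5 (chr8:75109331-75109392, plus strand) holds the same overlapping pair with the strands exchanged, its words beginning 153 and 149 bases before the start. Uhrf1 (chr17:56304103-56304160, plus strand), Dtl (chr1:191575545-191575577, minus strand) and Cdc6 (chr11:98907988-98908045, plus strand) hold 1 word each, 185, 8 and 138 bases before the start. Positions are counted from the start in the RefSeq promoter table, which for Uhrf1 and Cdc6 lies downstream of the gene start in the deposited coordinates. Rrm2 and Chaf1a hold no such word in this window.

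All 6 genes of helicase activation rose. Mcm10, needed to start the assembled helicase, went from 0.858 and 0.385 scaled FPKM in the epithelia to 7.14 ± 2.26 and 5.76 ± 2.12 (SD, n = 3 each) in the organoids, and Cdc45 from 2.49 and 2.09 to 15.0 ± 3.99 and 12.1 ± 4.21. The 4 GINS subunits, which act in 1 complex, did not move alike. Gins1 was at 1.47 and 1.95 in the epithelia, 11.7, 15.8 and 12.8 in bile duct organoids and 14.6, 8.53 and 11.6 in pancreatic duct organoids. Gins2 was at 0.784 and 0.537, then 5.30, 7.21 and 7.77, and 6.61, 4.15 and 5.63. Both groups of organoids lay well above the epithelia for these subunits, with changes of 2.30 ± 0.22 (SE, adjusted p = 0.000119) for Gins1 and 2.08 ± 0.19 (adjusted p = 0.000104) for Gins2. Gins3 was at 1.51 and 1.60 in the epithelia, 3.16, 4.76 and 5.12 in bile duct organoids and 4.60, 2.1 and 4.82 in pancreatic duct organoids. Gins4 was at 13.9 and 16.7, then 29.2, 33.4 and 32.8, and 34.7, 25.7 and 26.3. Their changes were 0.96 ± 0.28 (adjusted p = 0.0224) for Gins3 and 0.94 ± 0.15 (adjusted p = 0.00158) for Gins4, and that of Gins3 did not pass without either epithelium library (adjusted p = 0.168 without that of bile duct and 0.1 without that of pancreatic duct) or in a limma voom fit on recovered reads (1.34, adjusted p = 0.0648). Gins4 was the highest GINS subunit per length in every library, at 17.7 and 31.1 times Gins2 in the epithelia and 4.22 to 6.20 times in the organoids.

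All 5 genes of the clamp and its loader rose, with a median change of 1.23 and a range from 1.01 for Rfc2 to 1.99 for Rfc5. Pcna (chromosome 2, 132249162 to 132253314) was the most abundant member in all 8 libraries. It stood at 41.6 and 33.0 scaled FPKM in the epithelia, 79.6, 98.0 and 103 in bile duct organoids and 86.4, 63.2 and 99.2 in pancreatic duct organoids. Every organoid lay above both epithelia, and the change was 1.21 ± 0.18 (SE, adjusted p = 0.00122). The processed pseudogene Pcna-ps2 was listed at 8.87 and 23.5 in the epithelia and at 53.2 to 84.4 in the organoids, and reads of the near-identical copies may be split between them, so the level of Pcna is uncertain. Rfc2 to Rfc5, small subunits of the loader that opens the clamp, all rose. Rfc2 was at 4.91 and 4.73, then 8.87, 12.5 and 13.1, and 11.5, 7.80 and 11.7, a change of 1.01 ± 0.20 (adjusted p = 0.00407) that did not pass without bile duct epithelium. Rfc3 rose by 1.23, Rfc4 by 1.48 and Rfc5 by 1.99. Rfc1, the large subunit and not among the 39, rose by 0.95 (adjusted p = 0.00754).

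All 7 polymerase and primase genes rose. The primase subunit Prim2 had the narrowest change of them, from 2.07 and 2.2 scaled FPKM in the epithelia to 5.02, 6.77 and 6.00 in bile duct organoids and 5.74, 3.91 and 5.86 in pancreatic duct organoids, a change of 1.05 ± 0.18 (SE, adjusted p = 0.00201). Its partner Prim1, which carries the catalytic site, rose by 1.40, and Pola1 and Pola2 of the same complex by 1.24 and 1.33. Pold1, the catalytic subunit of the lagging strand polymerase, had the least spread among organoids, at 14.1, 13.5 and 16.1 in bile duct organoids and 15.4, 13.0 and 15.9 in pancreatic duct organoids against 4.28 and 4.45 in the epithelia. Its highest and lowest organoids were a factor of 1.23 apart, where for Rrm2 the factor was 3.14. Pole, the catalytic subunit of the leading strand polymerase, rose by 2.06 and Pole2 by 1.59. Of the smaller subunits outside the list, Pold2 rose by 1.94, Pold3 by 0.52, Pole3 by 0.78 and Pole4 by 0.36, and Pold4 changed by -1.10 (adjusted p = 0.0842). Under a median of ratios scaling Pold3 and Pole4 did not pass (adjusted p = 0.0564 and 0.0635).

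On the lagging strand, Lig1, the ligase that joins Okazaki fragments, was at 4.99 and 4.64 scaled FPKM in the epithelia, 25.3, 42.1 and 45.8 in bile duct organoids and 34.6, 20.9 and 37.1 in pancreatic duct organoids. It rose by 2.55 ± 0.29 (SE, adjusted p = 0.000279). Fen1, the nuclease that trims the fragments before ligation, was the only member removed by the filter. It had 1 and 4 reads in the epithelia and 29, 25, 27, 32, 25 and 13 in the organoids, at most 0.828 scaled FPKM. Fen1 overlaps Tmem258 on the opposite strand, which reached 42.4 FPKM as deposited, and the part of this overlap in the low value was not tested.

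All 4 nucleotide genes rose. Rrm2 (chromosome 12, 24708241 to 24714146), the small subunit of ribonucleotide reductase and the one that limits its activity in the cycle, was at 7.34 scaled FPKM in the bile duct and 2.93 in the pancreatic duct epithelium. It was at 43.1, 73.8 and 94.2 in bile duct organoids 1 to 3 and at 69.1, 30.0 and 60.5 in pancreatic duct organoids 1 to 3. The groups did not overlap, and the change was 3.36 ± 0.40 (SE, adjusted p = 0.000367). In the bile duct alone the change of Rrm2, 3.10, was smaller than that of Uhrf1, 3.31. Rrm1, the large subunit, rose less, by 1.79 ± 0.25 (adjusted p = 0.000828), from 4.67 and 4.68 to 20.1 ± 3.29 and 18.1 ± 5.79 (SD, n = 3 each). The ratio of Rrm2 to Rrm1 was 1.57 and 0.625 in the epithelia (bile duct first), 3.41 ± 0.76 (SD, n = 3) in bile duct organoids and 2.89 ± 0.29 (SD, n = 3) in pancreatic duct organoids. Tyms, which makes thymidylate, rose by 1.49 and Tk1, which salvages thymidine, by 2.00. Outside the list, Rrm2b, the small subunit of reductase used outside the S phase, fell by 0.99 (adjusted p = 0.00257), from 5.72 and 8.44 in the epithelia to 2.63 to 3.87 in the organoids. Samhd1, which breaks down deoxynucleotides, fell by 2.11 (adjusted p = 0.000163), from 21.6 and 19.1 to 2.53 to 4.91. Immune markers, which moved the same way, are given above. Their part in the fall of Samhd1, a gene well known from immune cells, was not tested.

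The genes that copy chromatin had the highest median change of the 8 roles, 3.01 over 3 genes. Uhrf1 (chromosome 17, 56303321 to 56323486), which brings the maintenance methyltransferase to new DNA, was at 4.54 and 3.24 scaled FPKM in the epithelia, 43.0, 57.1 and 61.7 in bile duct organoids and 49.3, 30.1 and 51.8 in pancreatic duct organoids. Its change of 3.33 ± 0.23 (SE) had the smallest adjusted p among the members, 2.28e-05. Chaf1a, the large subunit of the factor that deposits new histones, was at 1.73 and 1.72, then 16.1, 26.7 and 27.6, and 20.7, 12.7 and 26.6, a change of 3.01 ± 0.30 (adjusted p = 0.000157). Its partner Chaf1b rose by 2.18. The S phase control genes Dtl and Clspn rose by 1.89 and 2.44, from 0.393 to 0.782 in the epithelia to 2.70 to 11.2 in the organoids. By role, leaving out Lig1 as a single gene, the other medians were 2.13 for licensing, 2.09 for helicase activation, 1.23 for the clamp and loader, 1.40 for polymerases and primase, 1.90 for nucleotide supply and 2.17 for S phase control. No test compared the roles.

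**Figure D3:**
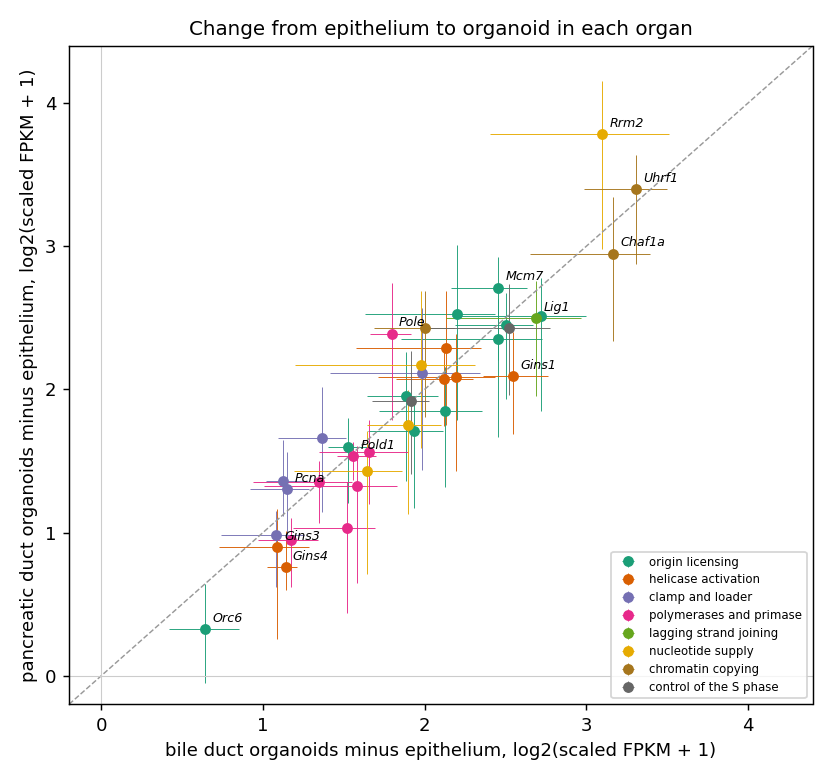
Change from epithelium to organoid in the bile duct (horizontal) and the pancreatic duct (vertical) for 38 members, as the log2(scaled FPKM + 1) of the mean of 3 organoids minus that of the epithelium, coloured by role. Lines span the 3 single organoids, and the dashed line marks equal change. Orc6 is nearest to 0 and Rrm2, Uhrf1 and Chaf1a lie farthest out in both organs.

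A further 61 genes of DNA replication outside the 39 were read the same way. All 61 were tested, and 47 rose and 4 fell, where 27.6% of all genes were called higher and 30% lower. Their median change was 1.08. The 61 include the pseudogene Pcna-ps2, without which 46 of 60 rose. The widest rises were those of Ccna2, the cyclin of the S and G2 phases, by 2.88, Asf1b, a histone chaperone, by 2.62, and Hells, a chromatin remodeller, by 2.46. Those that fell were Samhd1, Rrm2b, Orc3 and Orc4, of which only Samhd1 and Rrm2b also passed on FPKM as deposited. The 8 mitosis markers all rose, with a median change of 2.77, and summed to 39.6 and 13.1 scaled FPKM in the epithelia (bile duct first) against 127 to 286 in organoids.

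The 2 epithelium libraries had like levels of most members. Of 33 members with at least 1 FPKM in either, 1 was at least 2-fold apart, against 13.7% of 15092 genes, and the median difference, bile duct minus pancreatic duct, was 0.08. That member was Rrm2, at 7.34 in the bile duct and 2.93 in the pancreatic duct, a difference of 1.09 on 228 and 107 reads. Bile duct epithelium was the higher for 23 of the 33 members and for 46.2% of all genes. With 1 library a side there was no replicate check. The mitosis markers lay farther apart, with a median difference of 0.79, and the pan-epithelial markers differed by 1.81 in the same direction. Markers of the crypt and villus of the intestine had sums of 888 and 25.8 (bile duct first) and a median difference of 4.11, and those of germinal centre B cells had sums of 12.8 and 4.57. Their part in the difference of Rrm2 was not tested. Measured relative to those epithelial markers, 32 of the 33 members were at least 2-fold lower in bile duct epithelium. So were 13367 of 15092 genes, while 262 genes were at least 2-fold higher.

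No member passed the test between bile duct and pancreatic duct organoids. Of 38 members, 0 passed the adjusted threshold in a limma fit on the 6 organoids, nor did any of 12106 genes (0%), of which 305 had an unadjusted p under 0.05. No member was among those 305. A limma voom fit on recovered reads also called 0. The smallest unadjusted p among the members was 0.214, for Gins2, with a difference of 0.28 ± 0.20 (SE), bile duct minus pancreatic duct. It was followed by Uhrf1 (0.33 ± 0.25), Mcm6 (0.35 ± 0.27) and Gins1 (0.23 ± 0.21). The limma adjusted p was 1 for each. The median difference was 0.20, and 36 of 38 members were higher in bile duct organoids, as were 52.2% of all genes. Leaving out 1 organoid at a time, the median ran from -0.03 without pancreatic duct organoid 2 to 0.36 without bile duct organoid 1. Gins2, Uhrf1, Mcm6 and Gins1 differed by 0.42, 0.48, 0.54 and 0.31 without bile duct organoid 1. The same genes differed by 0.18, 0.22, 0.23 and 0.25 without bile duct organoid 3.

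The members ranked the single organoid cultures alike. Pancreatic duct organoid 2 had the lowest level of the 6 organoids for 38 of the 39 members, where 23.5% of all genes were lowest in that culture. Fen1 was lowest in pancreatic duct organoid 3. Bile duct organoid 3 was the highest for 28 members (17.8% of all genes), and bile duct organoid 1 was the lowest or second lowest for 34 (38.1% of all genes). Against the mean of the 6 organoids, the median member stood at -0.21, 0.22 and 0.32 in bile duct organoids 1 to 3 and at 0.08, -0.62 and 0.18 in pancreatic duct organoids 1 to 3. The proliferation marker Mki67 was lowest in pancreatic duct organoid 2 and next in bile duct organoid 1, at 23.6, 62.3 and 60.8 scaled FPKM in bile duct organoids and 30.1, 18.1 and 52.0 in pancreatic duct organoids. Top2a, another such marker, was also lowest in pancreatic duct organoid 2 but next in pancreatic duct organoid 1, at 44.4, 60.0 and 58.4 in bile duct and 41.5, 32.0 and 55.5 in pancreatic duct organoids. The sums of the pan-epithelial markers, most of which is Krt8 and Krt18, were 8780, 5240 and 5527 in bile duct organoids and 8555, 7094 and 3653 in pancreatic duct organoids, lowest in pancreatic duct organoid 3. Of the same list, Ap1m2 was lowest in pancreatic duct organoid 2 and Rab25 in bile duct organoid 1. Immune and erythroid markers were highest in pancreatic duct organoid 2, at 12.6 and 5.84, and their part in this order was not tested.

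**Figure D4:**
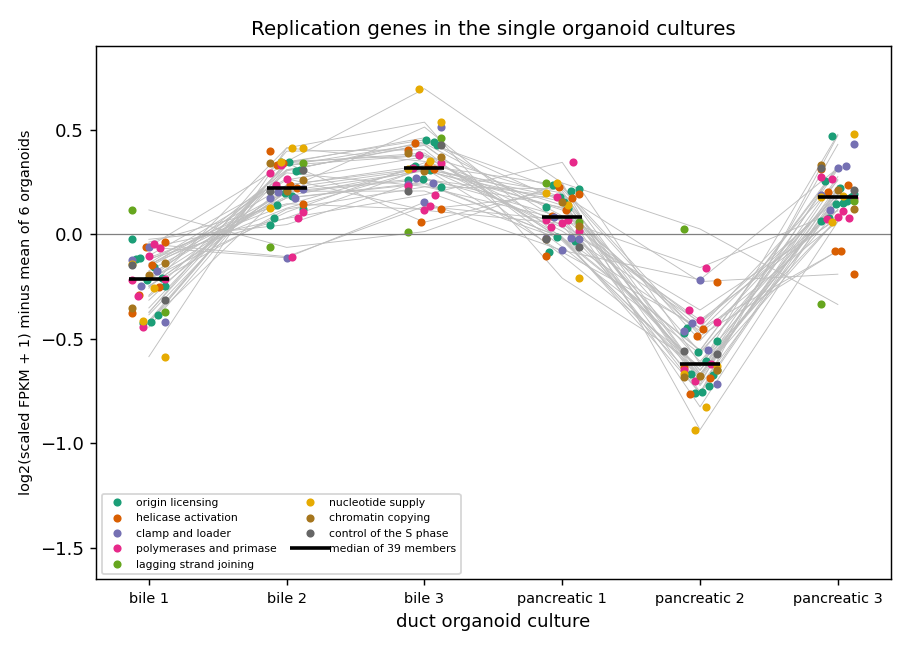
Level of the 39 members in each organoid culture, as log2(scaled FPKM + 1) minus the mean of the 6 organoids. Points are genes coloured by role, grey lines join a gene, and black bars are medians. The median is lowest in pancreatic duct organoid 2, at -0.62, and highest in bile duct organoid 3, at 0.32.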

How the data were processed

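RNA was measured in 8 libraries, grouped by the source or title in their labels. The authors deposited 1 table of FPKM values for 31228 genes; the unit was read from the values, since no header names it. Per the submitters' processing notes, Bowtie2 2.2.3, HISAT2 2.1.0, TopHat2 and HTSeq 0.6.0 were used, with no role or order given, and use of strand is not given in the sources used here. Multiplied by exon length in GENCODE M21, 28268 genes (90.5%), among them 34 of the 39 members, gave whole reads in all libraries within 0.05 of a read. 0 per-sample columns were left aside. Coordinates were taken from the deposited table (GRCm38).

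FPKM were scaled by a trimmed mean of log ratios (30% of ratios and 5% of levels trimmed per side, genes with at least 1 FPKM in any library), which moved organoid against epithelium by 0.27 (bile duct) and 0.30 (pancreatic duct) on the log2 scale. The log2(scaled FPKM + 1) values were tested with limma 3.58.1 in R 4.3.3 with an intensity trend and Benjamini-Hochberg adjustment over all genes. The organoid fit used genes that reached 1 FPKM in 3 or more cultures. Contrasts with 1 epithelium library used the 2-fold rule and no test. Values in every library are given for Mcm2 to Mcm7, Pcna, Orc1, Orc6, the 5 widest and 5 narrowest changes (by the smaller of both organs), members 2-fold apart between epithelia, and the 4 smallest p-values between organoids. Members, gene lists and rules were chosen with earlier results of these data known. The fits were tested on simulated data. Figures used Python with matplotlib.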

Additional observations from a re-analysis of the deposited data

How the results depend on the processing

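The reference for the change mattered most. Scaled to pan-epithelial markers, the culture fit called 2 members and 146 genes higher, 19 of 38 members lay below 0, and among the members named the change turned negative for Mcm4 (-0.55), Mcm6 (-0.38), Pcna (-1.18), Orc6 (-1.79), Rfc2 (-1.17), Prim2 (-0.93), Gins3 (-0.89) and Gins4 (-1.40). Relative to those markers, bile duct organoids had a median of 0.57 (0.96 without a pseudocount, added after the values were seen), 10 members and 212 genes at least 2-fold higher, and 8 of 38 members below 0. Called changes turned negative there for Pcna (-0.21), Rfc2 (-0.28), Rfc3 (-0.23), Pola2 (-0.011), Prim2 (-0.18), Gins3 (-0.27) and Gins4 (-0.22), and Orc6, not called before, stood at -0.72. Pancreatic duct organoids had a median of -1.48 (-0.92 without a pseudocount), 0 members and 31 genes 2-fold higher, and 37 of 38 members below 0. Among the named, called changes turned negative there for Mcm2 (-0.97), Mcm3 (-1.06), Mcm4 (-1.71), Mcm5 (-0.91), Mcm6 (-1.57), Mcm7 (-0.71), Pcna (-2.11), Orc1 (-1.82), Uhrf1 (-0.018), Chaf1a (-0.47) and Lig1 (-0.92), and Orc6 (-3.09), Gins4 (-2.66), Gins3 (-2.52), Prim2 (-2.47) and Rfc2 (-2.43), not called before, stood lowest among the named. Between the epithelia, 32 members and 13629 genes were then 2-fold apart, and the difference of Rrm2 was -0.72. The cause was not tested beyond the marker values.

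With a pseudocount of 0.1 the median was 2.29 in the bile duct and 2.49 in the pancreatic duct, and 3 of 33 members (19.1% of all genes) were 2-fold apart between the epithelia. With a filter at 10 FPKM fewer genes were tested: 21 of 24 members and 1554 genes were 2-fold higher in pancreatic duct organoids, and 0 of 4 members (Rrm2 not among them) and 838 of 5692 genes differed between the epithelia. A limma voom fit on recovered reads called 31 of 33 members and 3182 genes higher in culture. On FPKM as deposited, 2788 genes were higher and 3471 lower in bile duct organoids (1997 and 3909 when scaled), and 3201 and 3272 in pancreatic duct organoids (2350 and 3700 when scaled), with 37 members higher in each.

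Leaving out each library in turn, the culture fit called 32 to 38 members and 2447 to 4283 genes higher, with 2447 without pancreatic duct epithelium and 2736 without bile duct epithelium, where a single epithelium is assumed to vary like the organoids. Between the organoid groups, the organoid fit called 0 members and 0 to 11 genes, the 11 without pancreatic duct organoid 3. In these limma fits 159 to 1018 genes had an unadjusted p under 0.05, but 0 members did. The fewest came without bile duct organoid 2 and the most without bile duct organoid 1. Replicate numbers did not pair the organoids (correlations of deviations -0.106, -0.441 and 0.480). With a replicate block in the limma fit, 0 genes passed and 284 had an unadjusted p under 0.05, against 305 without it. Over all pairs the correlation was highest, at 0.650, for bile duct organoid 1 with pancreatic duct organoid 2, the cultures low in most members. These 2 cultures thus deviated alike over all genes tested. The lowest was -0.596, for bile duct organoid 3 with pancreatic duct organoid 2. The difference of the culture change between organs called 0 members under all 12 alternatives run.

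With 1 library per epithelium and 3 per organoid group, the number of libraries limits these comparisons, and Fen1 and Orc1 rest on few epithelial reads. Pcna has a near-identical copy, and 11 members, named above, overlap expressed genes on the opposite strand.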
